A study of Mus musculus with 24 samples.

Results

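The immediate early activity genes described here are Fos, Fosb, Junb, Egr1, Egr2, Egr4, Arc, Npas4, Nr4a1 and Dusp1. They were chosen by symbol as a set known from earlier work on neuronal activity and are 10 of the 36333 genes in the expression table. Earlier results of these data were known when the set was chosen, so comparisons of the members with all genes are not independent of the data. All 10 passed the filter on low values, a mean of at least 0.5 TPM over all libraries, and so stood among the 17267 genes tested. TPM is a relative abundance that corrects for transcript length and has the same sum in every library.

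Immediate early genes are transcribed within minutes of a stimulus without a need for new protein. In neurons, calcium entry through glutamate receptors and voltage-gated channels activates kinases that act on the factors CREB and SRF, which are already bound at these genes. Most of the products are transcription factors that switch on a later set of genes. Arc acts at the synapse, and Dusp1 turns off the kinases that started the response. Several of these genes, Fos and Junb among them, are also induced by injury and inflammation in glia and in cells of blood vessels. Their transcripts are short-lived, so that a level reports on the time shortly before death.

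RNA was sequenced from the upper brain quadrant with the lesion in 24 male mice at 5 days post injury (dpi), 1 library per mouse. TBI was induced by controlled cortical impact (CCI). Sham mice had anesthesia and a skin incision without craniotomy, so that they differ from TBI mice in the opening of the skull as well as in the impact. The methods also place a neurological score and an open field test at 5 dpi, and the mice were killed under deep isoflurane anesthesia. The time from these tests to death is not given, and the part of testing and anesthesia in the levels was not tested. The labels give the strain as C57BL6N, the age as 12 to 16 weeks and the tissue as cortex, whereas the methods name C57BL/6JRj mice and sections that also hold striatum, thalamus and dorsal hippocampus.

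The 5 groups were TBI with vehicle (5 mice, J01B, J17B, J18B, J19B and J20B), TBI with PLX3397 (5 mice, J01, J02, J12, J19 and J20), TBI with Anakinra (5 mice, J05, J06, J14, J21 and J22), TBI with PLX3397 plus Anakinra, called the combination (5 mice, J03, J04, J09, J10 and J17) and sham (4 mice, J07, J08, J15 and J16). PLX3397, an inhibitor of the receptor CSF1R on which microglia depend, was given in chow at 290 mg/kg until 5 dpi. Anakinra, which blocks the interleukin-1 receptor IL1R1, was injected subcutaneously 4 times at 100 mg/kg. Values per mouse are given below in the order of these animal numbers. Only the vehicle mice carry the letter B in their number, and whatever it stands for cannot be told apart from vehicle treatment. Without the letter, 4 of these numbers recur in other groups.

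No read counts were used, so the depth per library is unknown and the error of each value is the spread between mice. Between 22160 and 23249 genes per library were above 0. Striatal markers summed to 1509 to 1761 TPM in sham and to 1329.5 to 1993 TPM in vehicle mice, hippocampal markers to 143 to 162 and 127 to 168 TPM, and cortical excitatory markers to 273 to 299 and 143 to 187 TPM, so that the tissue held more than cortex. In bulk tissue, fewer cells of a type and less RNA per cell cannot be told apart.

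Promoters of members that moved in opposite directions after TBI are printed first, because the same short element occurs in both. The 250 bases before the annotated start were read from RefSeq (GRCm38.p6), 5′ to 3′ on the strand of the gene, for the 8 members with an entry. Capitals mark a CRE core, the letters TGACG or CGTCA on the other strand, the shorter form of the element TGACGTCA (CRE) that CREB recognises. In Nr4a1 they also mark an EGR element, GCGNGGGCG, which lies on the other strand there. The windows of Fos (chr12:85473640-85473889, plus strand) and Junb (chr8:84978749-84978998, minus strand) come from members that were higher after TBI.
Fos: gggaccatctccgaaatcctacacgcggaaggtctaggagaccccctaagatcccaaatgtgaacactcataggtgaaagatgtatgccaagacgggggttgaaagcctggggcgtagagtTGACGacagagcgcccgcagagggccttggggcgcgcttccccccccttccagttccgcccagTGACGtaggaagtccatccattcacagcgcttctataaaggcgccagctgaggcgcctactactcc
Junb: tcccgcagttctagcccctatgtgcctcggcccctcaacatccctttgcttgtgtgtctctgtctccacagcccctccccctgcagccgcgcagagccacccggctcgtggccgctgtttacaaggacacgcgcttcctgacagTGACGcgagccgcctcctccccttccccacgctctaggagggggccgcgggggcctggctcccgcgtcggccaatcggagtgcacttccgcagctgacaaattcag
Egr4 (chr6:85513590-85513839, minus strand) and Nr4a1 (chr15:101266596-101266845, plus strand) were lower after TBI.
Egr4: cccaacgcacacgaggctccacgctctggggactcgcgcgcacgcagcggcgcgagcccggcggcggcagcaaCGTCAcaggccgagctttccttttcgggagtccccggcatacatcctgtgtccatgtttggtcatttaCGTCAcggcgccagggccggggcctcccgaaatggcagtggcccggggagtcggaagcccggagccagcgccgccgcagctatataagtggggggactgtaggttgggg
Nr4a1: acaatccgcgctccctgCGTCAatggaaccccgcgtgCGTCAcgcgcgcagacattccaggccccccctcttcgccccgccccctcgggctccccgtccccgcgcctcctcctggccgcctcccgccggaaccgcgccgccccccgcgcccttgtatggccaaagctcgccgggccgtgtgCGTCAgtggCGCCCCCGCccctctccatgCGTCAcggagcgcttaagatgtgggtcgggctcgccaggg

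Fos held CRE cores at 129 and 66 bases before the start, Junb held 1 at 106 bases, Egr4 held 2 at 177 and 109 bases, and Nr4a1 held 4 at 233, 213, 69 and 40 bases. Among the remaining members, Fosb had a CRE core at 60 bases with an EGR element at 50 bases, and Npas4 had CRE cores at 179 and 169 bases. Dusp1 carried the full element TGACGTCA at 143 bases and a CRE core at 191 bases. Egr2 has 5 annotated starts, and CRE cores stood in 3 of its windows. All 8 members thus had a CRE core or full CRE in at least 1 window, as had 19.8% of the 27025 genes with a window. Counted by window, 10 of 12 windows of members held one, against 17.8% of the 32851 windows of all genes. The 3 windows of Egr2 among them overlap and hold the same cores, so they are not separate observations. CRE cores outside a full one occurred in 16.6% of all windows, full CREs in 1.55%, EGR elements in 4.7%, AP-1 elements (TGANTCA) in 6.75% and CArG boxes, the element of SRF, in 1.47%. A CArG box was matched in Egr2 only and an AP-1 element in none of the members' windows. Sites farther upstream and near matches with other letters were not counted, and Arc and Egr1 had no window, so no absence of such sites follows. A match is a description of these letters. Both directions of change after TBI occurred among promoters with a CRE core.

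After TBI, members moved in both directions. Among mice given vehicle, Egr1, Egr4, Nr4a1, Fosb and Npas4 fell versus sham to levels between 47.6% and 34.9% below the sham mean, whereas Junb and Fos rose by 33.0% and 28.9%. Arc, Egr2 and Dusp1 did not pass the test. With 5 of 10 members lower and 2 higher at an adjusted p below 0.05, the shares stand against 27.7% and 26.6% of all genes tested. Higher calls were thus no more frequent among the members than among all genes, and that of Fos rested on single mice. The median log2 fold change of the members was -0.47, compared with -0.01 over all genes. Each group of TBI mice was compared with the same 4 sham mice, so the comparisons with sham are not independent of each other.

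**Figure D1:**
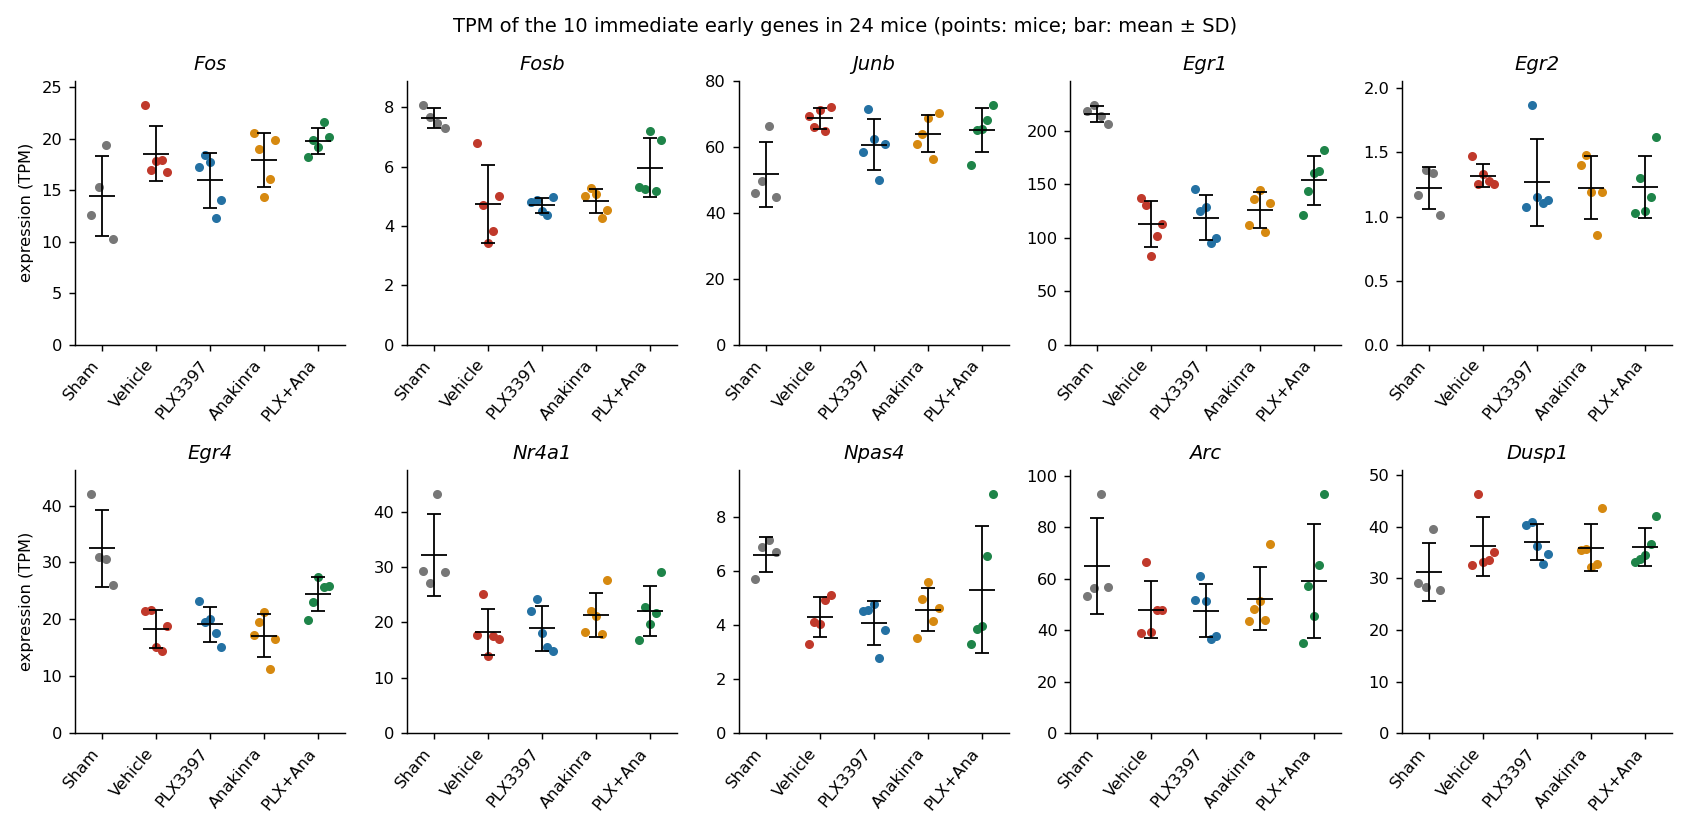
TPM of each of the 10 members (y axis of each panel, starting at 0) in the 5 groups (x axis, PLX+Ana is PLX3397 plus Anakinra). Points are single mice, and bars are the mean ± SD. All TBI mice lie below the sham mice in Egr1 and Fosb, Egr2 overlaps between all groups, and the sham mouse that stands apart in Arc, Nr4a1 and Dusp1 is J15.

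Of the 3 members that encode subunits of AP-1, a transcription factor made of a Fos and a Jun protein, Fosb moved opposite to the other 2. Fosb (chromosome 7, 19302696 to 19310118 in GRCm38.p6) measured 8.08, 7.68, 7.47 and 7.31 TPM in the sham mice and 6.78, 4.72, 3.41, 3.81 and 4.997 TPM in the vehicle mice. It was 4.79, 4.87, 4.51, 4.37 and 4.97 TPM with PLX3397, 5.003, 5.27, 5.07, 4.28 and 4.54 TPM with Anakinra and 5.31, 5.25, 7.19, 5.18 and 6.88 TPM with PLX3397 plus Anakinra. Every TBI mouse lay below every sham mouse, the nearest being J09 and J17 of the combination group. Versus sham, Fosb fell in vehicle mice (log2 fold change -0.62, SE 0.12, adjusted p = 9.88e-05), with PLX3397 (log2 fold change -0.60, SE 0.12, adjusted p = 0.000196), with Anakinra (log2 fold change -0.57, SE 0.12, adjusted p = 0.0002504) and with PLX3397 plus Anakinra (log2 fold change -0.32, SE 0.12, adjusted p = 0.0335). The last of these calls was lost when J03, J04, J10, J07, J08 or J15 was left out, with adjusted p between 0.05399 and 0.0823.

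Fos (chromosome 12, 85473890 to 85477274), the gene most used as a mark of recent neuronal activity, was at 12.6, 15.3, 19.4 and 10.3 TPM in sham mice. Vehicle mice had 23.3, 16.997, 17.8, 17.9 and 16.8 TPM and mice with PLX3397 had 17.3, 18.4, 17.7, 12.3 and 14.1 TPM. With Anakinra it was 20.5, 18.98, 14.3, 16.1 and 19.9 TPM, and with PLX3397 plus Anakinra 18.2, 19.8, 19.2, 21.6 and 20.1 TPM. The sham mice spread widely, and J15 lay within the range of the TBI mice, so that sham overlapped with every TBI group. Fos rose versus sham in vehicle mice (log2 fold change 0.37, SE 0.14, adjusted p = 0.0264) and with PLX3397 plus Anakinra (log2 fold change 0.47, SE 0.14, adjusted p = 0.00906). The values were 0.32 with Anakinra (adjusted p = 0.0519) and 0.16 with PLX3397 (adjusted p = 0.373) on the log2 scale. Single mice decided these calls. In vehicle mice the rise did not pass without J16 (adjusted p = 0.1602), J01B (adjusted p = 0.0835) or J07 (adjusted p = 0.0801), with PLX3397 plus Anakinra it did not pass without J16 (adjusted p = 0.0627), and with Anakinra it passed without J15 (adjusted p = 0.00516) or any of J01B, J14, J19 and J21 (adjusted p between 0.0208 and 0.0459). With only vehicle and sham mice in the fit, the adjusted p of the rise was 0.0538.

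Junb (chromosome 8, 84976909 to 84978748) encodes a Jun protein that pairs with Fos and FosB. Sham mice had 46.01, 49.8, 66.3 and 44.9 TPM and vehicle mice 69.4, 66.2, 71.3, 64.8 and 72.3 TPM. Levels were 58.7, 71.6, 62.6, 50.2 and 61.01 TPM with PLX3397, 60.9, 64.1, 68.8, 56.5 and 70.4 TPM with Anakinra and 54.5, 65.3, 65.6, 68.3 and 72.8 TPM with PLX3397 plus Anakinra. As for Fos, J15 was the highest sham mouse and fell among the TBI mice, whereas the other 3 sham mice were below every vehicle mouse. Junb rose in vehicle mice (log2 fold change 0.42, SE 0.10, adjusted p = 0.000941), with Anakinra (log2 fold change 0.32, SE 0.10, adjusted p = 0.00928) and with PLX3397 plus Anakinra (log2 fold change 0.34, SE 0.10, adjusted p = 0.008301). With PLX3397 the log2 difference was 0.24 (adjusted p = 0.0556), and it passed the test without J15 (adjusted p = 0.00239), J19 (adjusted p = 0.01501) or J03 (adjusted p = 0.0437).

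The zinc finger factors of the EGR family did not move alike. Egr1, which binds GC-rich promoters and is abundant in resting cortex, was the member with the highest level in every group. It was 218, 224, 213 and 206 TPM in sham mice and 137, 130.1, 82.97, 102 and 113 TPM in vehicle mice. Mice with PLX3397 had 145, 125, 128, 94.7 and 99.4 TPM, those with Anakinra 112, 136, 145, 105 and 132 TPM and those with PLX3397 plus Anakinra 121, 143, 160.3, 163 and 182 TPM. The sham mice kept within a narrow range that no TBI mouse reached. Egr1 fell in vehicle mice (log2 fold change -0.95, SE 0.14, adjusted p = 1.91e-06), with PLX3397 (log2 fold change -0.88, SE 0.14, adjusted p = 9.58e-06), with Anakinra (log2 fold change -0.78, SE 0.14, adjusted p = 2.93e-05) and with PLX3397 plus Anakinra (log2 fold change -0.50, SE 0.14, adjusted p = 0.00493). No call of these 4 was lost when any 1 mouse was left out.

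Group means of Egr1 ran from 113 ± 21.7 TPM in vehicle mice (SD, n = 5) over 118 ± 21.1 TPM with PLX3397 (SD, n = 5) and 126 ± 16.9 TPM with Anakinra (SD, n = 5) to 154 ± 22.9 TPM with PLX3397 plus Anakinra (SD, n = 5) and 215 ± 7.52 TPM in sham mice (SD, n = 4). Among neighbours in this order, only the combination and sham passed the test. PLX3397 and vehicle (adjusted p = 0.796) and Anakinra and PLX3397 (adjusted p = 0.726) did not differ beyond their spread. The combination lay above Anakinra by 0.28 on the log2 scale (SE 0.13, unadjusted p = 0.0364 in limma). That difference did not pass after adjustment over all genes (adjusted p = 0.147).

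Egr4 (chromosome 6, 85511121 to 85513589), a family member found mainly in neurons, was 42.1, 31.01, 30.6 and 26.1 TPM in sham mice and 21.4, 21.6, 15.2, 14.5 and 18.9 TPM in vehicle mice. It was 23.3, 19.5, 20.1, 17.6 and 15.1 TPM with PLX3397, 17.2, 19.6, 21.3, 11.3 and 16.5 TPM with Anakinra and 19.9, 23.1, 27.4, 25.8 and 25.9 TPM with PLX3397 plus Anakinra. The lowest sham mouse, J16, lay above all mice with vehicle, PLX3397 or Anakinra, and below J09 of the combination group. Egr4 fell with vehicle (log2 fold change -0.79, SE 0.16, adjusted p = 0.000133), PLX3397 (log2 fold change -0.73, SE 0.16, adjusted p = 0.000461) and Anakinra (log2 fold change -0.89, SE 0.16, adjusted p = 3.25e-05). With PLX3397 plus Anakinra the log2 difference from sham was -0.38 (adjusted p = 0.0534) and it passed when J16 was left out (adjusted p = 0.0274) or any of J19B, J01, J20, J14, J21 and J09 (adjusted p between 0.0273 and 0.0488). With only these groups in the fit the adjusted p was 0.0216.

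Egr2 (chromosome 10, 67534469 to 67542188), known for its part in myelination and in the hindbrain, was the lowest member, at 1.01 to 1.36 TPM in sham and 1.25 to 1.47 TPM in vehicle mice. The ranges were 1.08 to 1.87 TPM with PLX3397, 0.859 to 1.48 TPM with Anakinra and 1.03 to 1.62 TPM with PLX3397 plus Anakinra. All groups overlapped, and the log2 difference between vehicle and sham was 0.065 (95% confidence interval -0.16 to 0.28). At this level a change understates itself on the log2(TPM + 1) scale.

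Nr4a1 and Npas4 encode transcription factors of 2 further families. Nr4a1 (chromosome 15, 101253902 to 101274795), an orphan nuclear receptor, was 29.2, 27.1, 43.2 and 29.2 TPM in sham mice and 17.7, 25.1, 13.9, 17.5 and 17 TPM in vehicle mice. It was 21.98, 24.2, 18.1, 15.5 and 14.9 TPM with PLX3397, 18.2, 22.03, 21.1, 17.9 and 27.7 TPM with Anakinra and 16.9, 22.8, 19.7, 21.7 and 29.1 TPM with PLX3397 plus Anakinra. J15 was far above the other sham mice, and the highest mice of the Anakinra and combination groups reached into the sham range, whereas vehicle and PLX3397 mice did not. Nr4a1 fell with vehicle (log2 fold change -0.79, SE 0.17, adjusted p = 0.000346), PLX3397 (log2 fold change -0.73, SE 0.17, adjusted p = 0.000939), Anakinra (log2 fold change -0.56, SE 0.17, adjusted p = 0.00705) and PLX3397 plus Anakinra (log2 fold change -0.52, SE 0.17, adjusted p = 0.01601). The last call was lost without J15 (adjusted p = 0.0936) or J03 (adjusted p = 0.0536).

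Npas4 (chromosome 19, 4984353 to 5003439) is induced by calcium entry in neurons and by few other signals. Its values were 5.69, 6.89, 7.16 and 6.703 TPM in sham mice and 3.29, 4.101, 4.06, 4.95 and 5.11 TPM in vehicle mice. They were 4.52, 4.55, 4.77, 2.77 and 3.82 TPM with PLX3397, 3.53, 4.98, 5.599, 4.14 and 4.65 TPM with Anakinra and 3.32, 3.85, 3.96, 6.57 and 8.86 TPM with PLX3397 plus Anakinra. All mice with vehicle, PLX3397 or Anakinra lay below all sham mice, while the combination group spread from its lowest mouse, J03, to J17, the highest of all 24 mice. Npas4 fell with vehicle (log2 fold change -0.53, SE 0.18, adjusted p = 0.01697), PLX3397 (log2 fold change -0.59, SE 0.18, adjusted p = 0.00979) and Anakinra (log2 fold change -0.46, SE 0.18, adjusted p = 0.0381). With PLX3397 plus Anakinra the log2 difference was -0.34 (adjusted p = 0.148), and it passed without J17 (adjusted p = 0.0112). The call with Anakinra was lost without J05, J21, J22, J08, J15 or J16, with adjusted p between 0.0512 and 0.0991.

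The 2 members that are not transcription factors did not pass the test against sham in any TBI group. Arc (chromosome 15, 74669081 to 74672570), whose protein removes AMPA receptors from synapses, was 53.2, 56.4, 92.7 and 56.9 TPM in sham mice and 39.02, 66.4, 39.4, 47.7 and 47.7 TPM in vehicle mice. It was 51.8, 60.9, 51.4, 36.4 and 37.8 TPM with PLX3397, 43.6, 48.4, 51.2, 44.1 and 73.3 TPM with Anakinra and 34.98, 57.01, 45.7, 65.5 and 92.97 TPM with PLX3397 plus Anakinra. The highest sham mouse was J15 and the highest combination mouse J17. In TPM relative to its mean, Arc varied more than any other member in the sham and Anakinra groups, while Fosb with vehicle, Egr2 with PLX3397 and Npas4 with the combination varied more than Arc. For vehicle versus sham the log2 difference was -0.41 (95% confidence interval -0.87 to 0.046, adjusted p = 0.121), and without J17B it passed (adjusted p = 0.0479).

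Dusp1 (chromosome 17, 26505591 to 26508472), a phosphatase that switches off MAP kinases, was 29.1, 28.4, 39.5 and 27.7 TPM in sham mice and 32.7, 46.4, 33.1, 33.6 and 35.1 TPM in vehicle mice. With PLX3397 it was 40.2, 40.96, 36.2, 32.9 and 34.7 TPM, with Anakinra 35.4, 35.6, 32.2, 32.8 and 43.6 TPM and with PLX3397 plus Anakinra 33.2, 33.7, 34.5, 36.7 and 42.1 TPM. All TBI mice exceeded 3 of the sham mice, and J15 was within their range. The log2 difference of vehicle from sham was 0.21 (adjusted p = 0.106). Without J15, Dusp1 passed as higher with vehicle (adjusted p = 0.0118), PLX3397 (adjusted p = 0.00679), Anakinra (adjusted p = 0.0133) and PLX3397 plus Anakinra (adjusted p = 0.0169). With PLX3397 it also passed without J17B, J19 or J22, with adjusted p between 0.0351 and 0.0497.

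**Figure D2:**
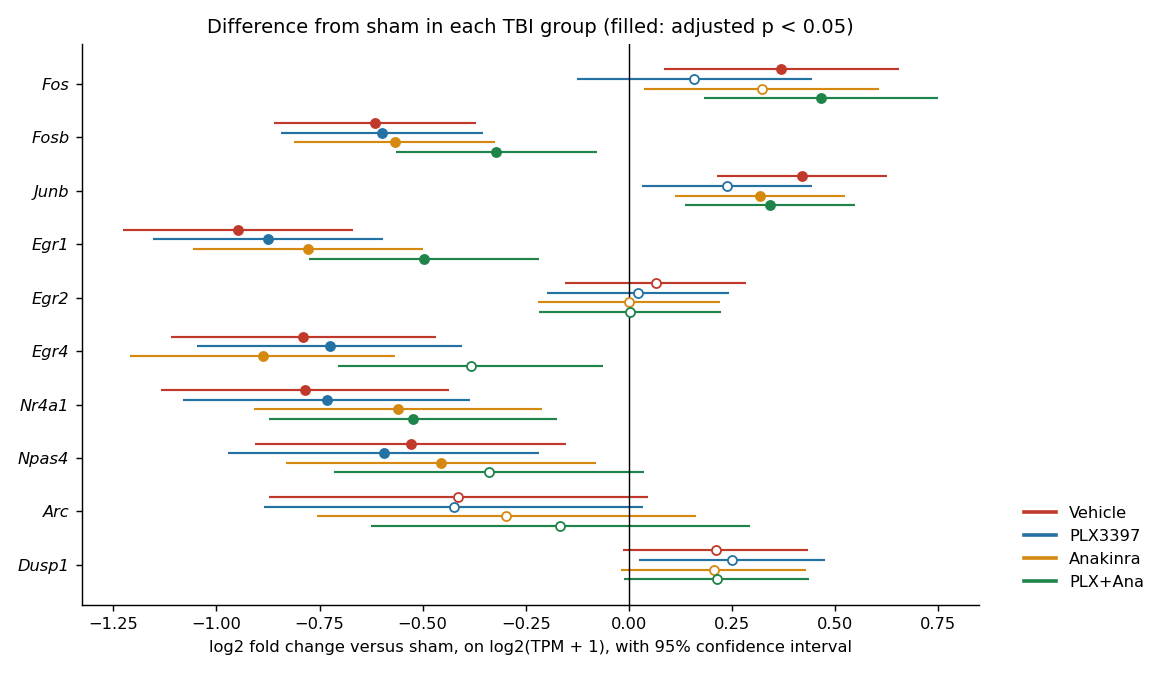
Log2 fold change of each member versus the 4 sham mice on the log2(TPM + 1) scale (x axis) with its 95% confidence interval, for the 4 TBI groups. Filled points have an adjusted p below 0.05 in limma. Egr1, Fosb and Nr4a1 are filled and left of 0 in all groups, Fos, Junb and Dusp1 lie right of 0, and Egr2 lies near 0.

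Fewer members differed from sham with PLX3397 plus Anakinra in the direction of a fall, although the difference between these counts was not tested. In vehicle mice the 5 lower members were also those whose TPM did not overlap with sham, which 21% of all genes did in that direction. With PLX3397, 5 members were lower and 0 higher (22.5% and 22.7% of all genes), the same 5 without overlap (17.6% of all genes). With Anakinra, 5 members were lower and 1, Junb, was higher (29.2% and 25.1% of all genes), and 4 of the lower ones did not overlap (23.6% of all genes). With PLX3397 plus Anakinra, 3 members were lower and 2 higher (18.1% and 20.7% of all genes), and Egr1 and Fosb did not overlap (14% of all genes). The higher members of the combination thus stood at the share of all genes.

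Against the mean of the 4 TBI groups, which rests on 20 mice, 8 of 10 members differed from sham. Egr1 (-0.77), Egr4 (-0.70), Nr4a1 (-0.65), Fosb (-0.53) and Npas4 (-0.48) were lower on the log2 scale, beside 29% of all genes. Junb (0.33), Fos (0.33) and Dusp1 (0.22) were higher, beside 27.2% of all genes. The call of Fos was lost without J16 (adjusted p = 0.171) or J07 (adjusted p = 0.0703), and that of Dusp1 without J16 (adjusted p = 0.164), J08 (adjusted p = 0.141) or J07 (adjusted p = 0.118). Limma's F-test over the 5 groups called 6 members, Egr1, Egr4, Fosb, Nr4a1, Junb and Fos, beside 51.9% of all genes. No member reached a ratio of group means above 2 with a difference above 4 TPM in vehicle versus sham, limits that 5.26% of all genes met.

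Ratios of members within each library show the opposite directions apart from any scaling of the library. They were chosen after the values were seen and are given without a test. Fos over Fosb and Junb over Egr1 divide a member that rose by one that fell. Fosb and Egr1 alone already separated all TBI mice from sham, so separation of these ratios is no further evidence. Its share among ratios of other genes was not computed. Fos over Fosb was 1.89 ± 0.531 in sham mice (SD, n = 4) and 4.06 ± 0.849 in vehicle mice (SD, n = 5). It ranged from 1.41 to 2.596 in sham, 3.35 to 5.23 with vehicle, 2.81 to 3.93 with PLX3397, 2.82 to 4.38 with Anakinra and 2.68 to 4.18 with PLX3397 plus Anakinra, so that no TBI mouse overlapped with sham. Junb over Egr1 was 0.211 to 0.311 in sham mice, 0.507 to 0.859 with vehicle and 0.401 to 0.455 with PLX3397 plus Anakinra, again without overlap with sham. The pair Egr1 and Egr4, which fell together, kept a ratio of 6.82 ± 1.16 in sham (SD, n = 4) and 6.17 ± 0.581 with vehicle (SD, n = 5), and these ranges overlapped.

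**Figure D3:**
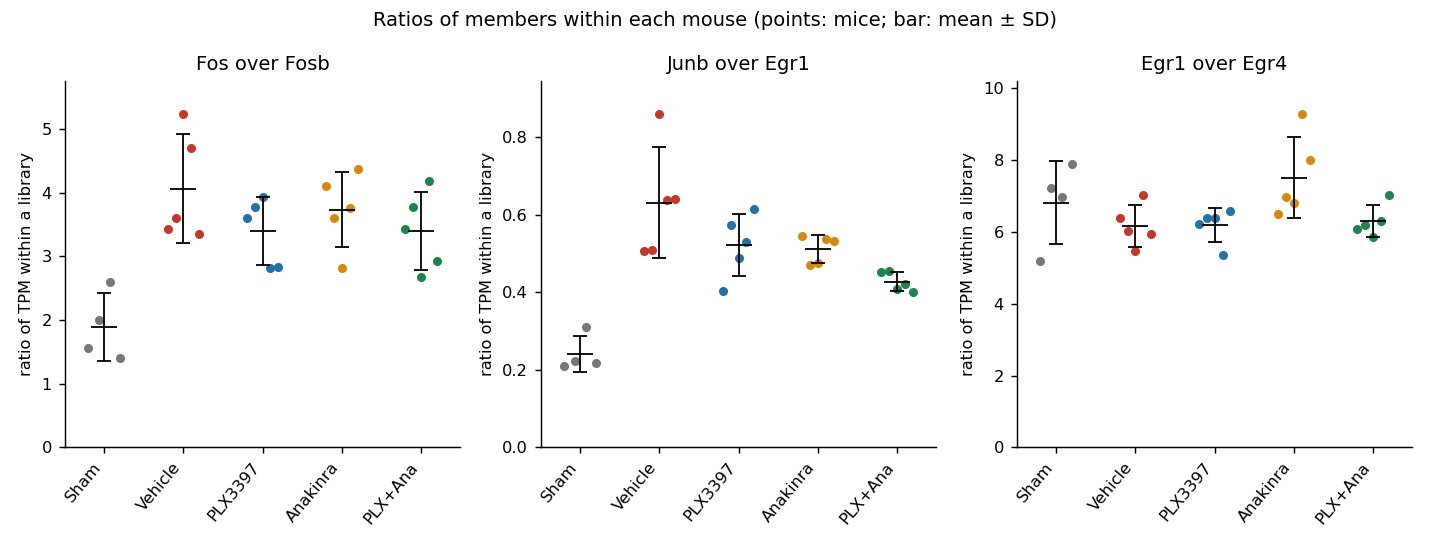
Ratio of the TPM of 2 members within each library (y axis, starting at 0) in the 5 groups (x axis), with points for mice and bars for the mean ± SD. Fos over Fosb and Junb over Egr1 are lower in each of the 4 sham mice than in any TBI mouse, and Egr1 over Egr4 overlaps between sham and the TBI groups.

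Neuron markers were lower after TBI together with the members that fell. The sum of 13 markers, among them Rbfox3, Map2, Snap25 and Syt1, was 8830.2 to 9262 TPM in sham mice and 5566 to 6689 TPM in vehicle mice. It was 6446 to 7468 TPM with PLX3397, 5842 to 6487 TPM with Anakinra and 6824 to 7203 TPM with PLX3397 plus Anakinra, and none of the 13 was at 0 in any library. Of these markers, 12 were lower and 0 higher in vehicle mice versus sham, beside 27.7% and 26.6% of all genes. Their median log2 fold change was -0.43. Microglia markers were higher in vehicle mice, at 1362 to 1774 TPM against 332 to 339.6 TPM, as were astrocyte markers, at 3391 to 4540.3 TPM against 1320.5 to 1435 TPM. The part of cell composition in the members' changes was not tested.

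The members were also expressed per 1000 TPM of neuron markers. Since the marker sum was lower after TBI, this scale raises every member relative to sham by construction, and it tests nothing. Egr1 in vehicle mice was 18.7 ± 2.67 (SD, n = 5) on this scale and 23.8 ± 0.912 in sham (SD, n = 4), or 78.6% of the sham mean, against 52.4% in TPM. Its ranges, 14.7 to 22.1 and 22.4 to 24.3, still did not overlap, but the share of all genes without overlap on this scale was not computed. Npas4 in vehicle mice was at 99.1% of the sham mean and Fosb at 93.3%, with overlapping ranges. For Egr4 and Nr4a1 the values were 84.6% and 84.6%, and their ranges overlapped too. Fos, Junb and Dusp1 stood at 195%, 201% and 174% of the sham mean on this scale, and Egr2 and Arc, which did not pass the test in TPM, at 164% and 111%. The sums come from the same libraries as the members and give no independent measure of neuron number. Markers of cortical excitatory neurons fell further in vehicle mice versus sham than the neuron markers used here. The median log2 fold changes were -0.79 and -0.43, and the members were not scaled to the cortical markers.

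**Figure D4:**
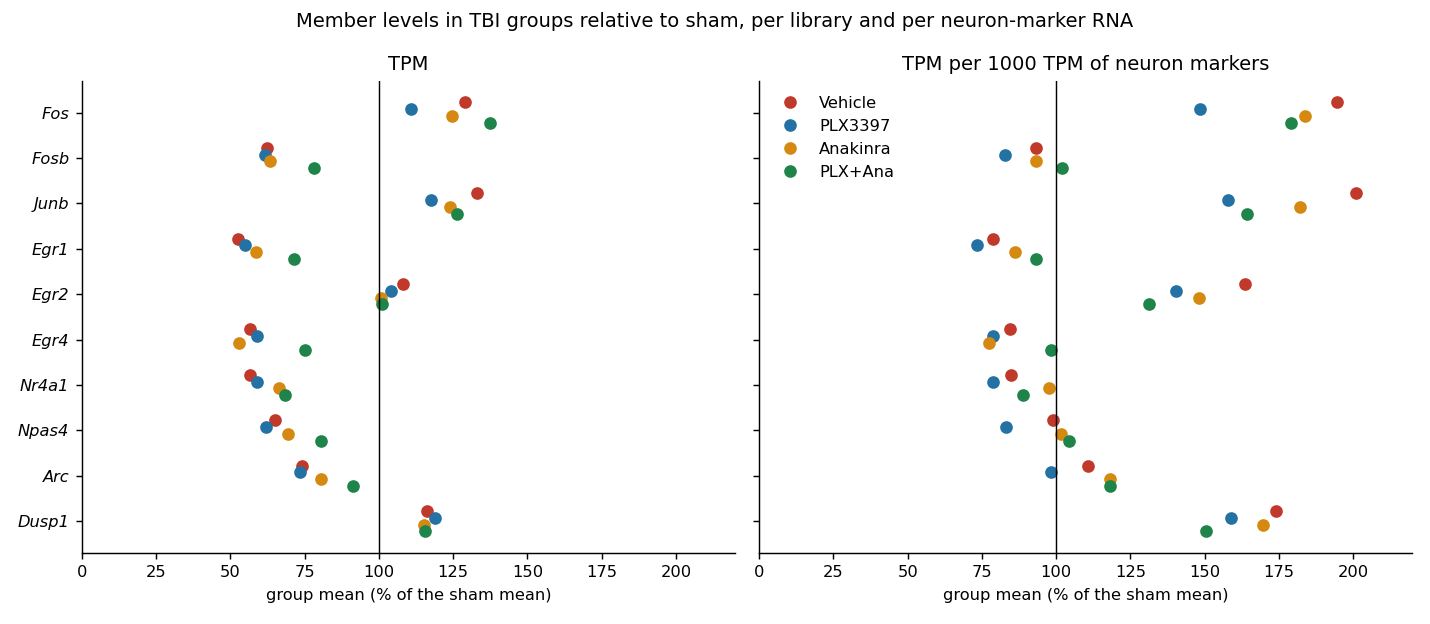
Group means of the 10 members as a percentage of the sham mean (x axis) in TPM (left) and per 1000 TPM of the summed neuron markers (right), for the 4 TBI groups. On the right, Fosb and Npas4 in vehicle mice lie at 93.3% and 99.1%, Egr1 stays below 100%, and Fos, Junb and Dusp1 lie between 148% and 201%, all 4 groups included.

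Neither drug alone gave a call among the members. The comparisons with vehicle share the same 5 vehicle mice. PLX3397 versus vehicle called 0 of 10 members, beside 9.89% of all genes, and 0 members at an unadjusted p below 0.05, beside 22.8% of all genes. The largest log2 differences were -0.21 for Fos (95% confidence interval -0.48 to 0.057) and -0.18 for Junb (-0.38 to 0.011). For Egr1 the difference was 0.072 (-0.19 to 0.34), an interval that leaves room for a change in either direction. Microglia markers in the same mice summed to 603 to 934 TPM, below the 1362 to 1774 TPM of vehicle mice. Of 13 neuron markers, 6 were higher, beside 3.23% of all genes. Anakinra versus vehicle also called 0 members, beside 0.116% of all genes, and 0 at an unadjusted p below 0.05, beside 12.4% of all genes. Nr4a1 differed by 0.23 (-0.10 to 0.56) and Egr1 by 0.17 (-0.094 to 0.43) on the log2 scale. PLX3397 against Anakinra called 0 members, beside 6.69% of all genes, and 0 at an unadjusted p below 0.05, beside 20.1% of all genes.

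Egr1 was higher with PLX3397 plus Anakinra than with vehicle. Its mean of 154 ± 22.9 TPM (SD, n = 5) compared with 113 ± 21.7 TPM (SD, n = 5), a difference of 36.3% (log2 fold change 0.45, SE 0.13, adjusted p = 0.0149), and the groups overlapped through J03. It was the only one of 10 members called higher, beside 7.88% of all genes, and 0 were lower, beside 9.6%. The call was lost without J18B, the lowest vehicle mouse (adjusted p = 0.06296), or J17, the highest combination mouse (adjusted p = 0.05005). Egr4 differed by 0.41 (adjusted p = 0.0583) and passed without J01B, J17B, J21, J03 or J07, with adjusted p between 0.0299 and 0.0449. With only these groups in the fit its adjusted p was 0.0375. Fosb differed by 0.29 (adjusted p = 0.0712) and passed without J01B (adjusted p = 0.00409). The median log2 difference of the members was 0.22, compared with 0.01 over all genes.

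Neuron markers moved the same way in this comparison, with 7 of 13 higher and 0 lower, beside 7.88% and 9.6% of all genes. Of 6 markers of cortical excitatory neurons, 4 were higher. Their sums, 193 to 209 TPM with PLX3397 plus Anakinra and 143 to 187 TPM with vehicle, did not overlap. On the scale of neuron markers, Egr1 was 17.7 to 25.2 with the combination and 14.7 to 22.1 with vehicle. Microglia markers (546 to 717 against 1362 to 1774 TPM) and red blood cell markers (725 to 951 against 1507 to 4406 TPM) were lower with the combination. Their part in the change of Egr1 was not tested.

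PLX3397 plus Anakinra versus PLX3397 called 0 members, beside 0.151% of all genes, while 4 members had an unadjusted p below 0.05, as did 6.71% of all genes. Among these, Egr1 differed by 0.38 (unadjusted p = 0.00652, adjusted p = 0.39003). Fosb did not overlap between these groups, at 5.18 to 7.19 and 4.37 to 4.97 TPM, as did 0.365% of all genes in this direction (adjusted p = 0.583). Egr4 was higher with both drugs than with Anakinra (log2 fold change 0.50, SE 0.15, adjusted p = 0.0235), with means of 24.4 ± 2.96 and 17.2 ± 3.77 TPM (SD, n = 5 each) and ranges that overlapped. It was the only member called, beside 4.67% of all genes higher and 8.1% lower, and the call was lost without J21, J17, J09 or J10, with adjusted p between 0.0536 and 0.0927. For the interaction of the drugs, the amount by which the effect of both differs from the sum of each, 0 members passed, as did 0% of all genes. Egr4 alone had an unadjusted p below 0.05 (0.04397), against 8.08% of all genes, with a log2 value of 0.44 and a 95% confidence interval of 0.013 to 0.87.

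Between mice of a group, the members deviated together. In the residuals of log2(TPM + 1) around the group means, all 45 pairs of members had a correlation above 0 over the 24 libraries, with a median r of 0.45 and a range of 0.03 to 0.92. Arc and Nr4a1 had the highest (r = 0.92), followed by Nr4a1 and Dusp1 (r = 0.89), Arc and Dusp1 (r = 0.85) and Egr1 and Egr4 (r = 0.78). Fosb and Npas4 had the lowest. The libraries share their scaling and their dissection, so these values are descriptive. Correlations within other sets of genes were not computed, so the shared deviation is not shown to be particular to the members. Between-mouse spread was large for most members, as the residual SD of Arc, 0.37 on the log2 scale, exceeded that of 99.6% of the 2641 genes within 0.5 log2 units of its level, and for Egr1 the share was 99% of 1184 genes. Egr2 (13.9%) and Fosb (59.4%) did not stand out.

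**Figure D5:**
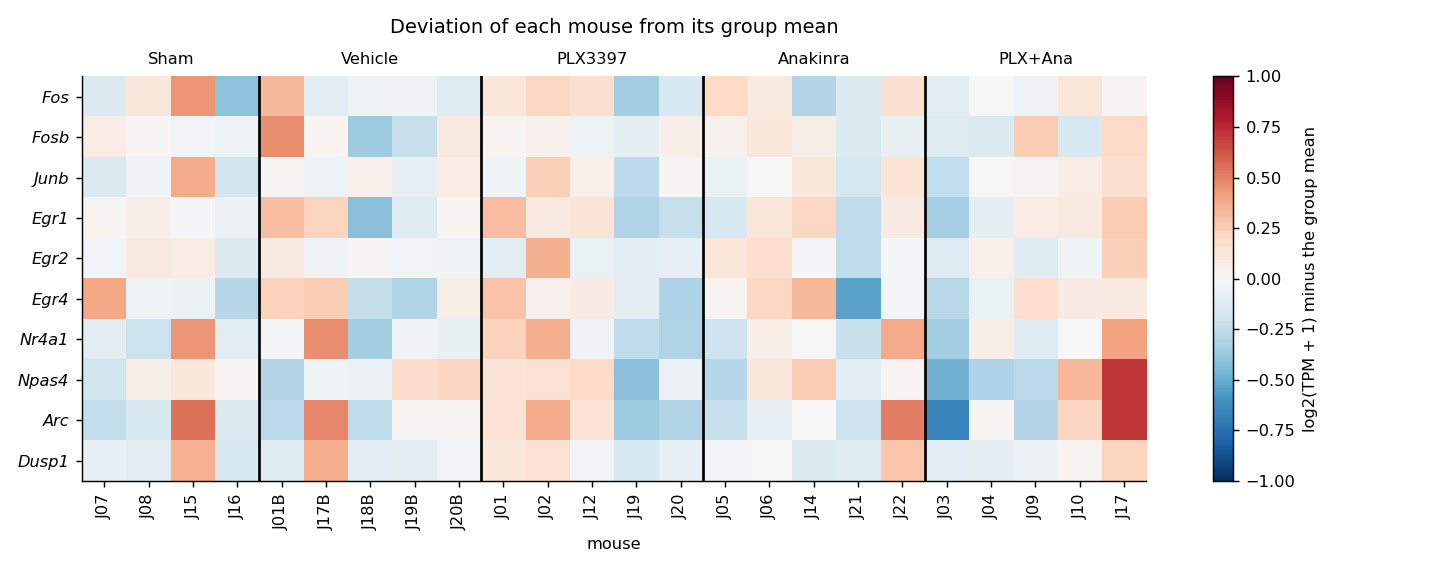
Deviation of log2(TPM + 1) from the mean of the mouse's own group (colour, log2 units) for the 10 members (rows) in the 24 mice (columns, by group). Columns tend to hold 1 colour, red in combination mouse J17 and blue in J03, PLX3397 mouse J19 and Anakinra mouse J21. Sham mouse J15 is red in Fos, Junb, Nr4a1, Arc and Dusp1 but not in Egr1, Fosb or Egr4.

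Combination mouse J17 had the highest value of its group in 7 of 10 members, and J03 of the same group had the lowest in 9. PLX3397 mouse J19 was lowest in 7 members, Anakinra mouse J21 in 6 and sham mouse J16 in 7, while sham mouse J15 was highest in 6. In standard units averaged over the members, the deviations were 1.24 for J17, -1.15 for J03, -1.01 for J19, -0.98 for J21 and 0.97 for J15. Over the 24 libraries, the correlation of these deviations was 0.67 with the other rapid genes described below, 0.60 with relatives of the members, 0.51 with upstream activators and 0.46 with late neuronal genes. With markers of cells and regions it was 0.50 for hippocampus, 0.47 for neurons, 0.28 for striatum, -0.50 for astrocytes and -0.49 for leukocytes other than microglia. It was 0.16 for cortical excitatory neurons, 0.15 for thalamus, -0.20 for microglia, -0.21 for oligodendrocytes, -0.12 for endothelium and -0.013 for red blood cells. With heat shock genes it was 0.44. The part of dissection and cell content in the deviations was not tested. The genes outside the list whose residuals were most like the members' mean were Phf13, Pigb, Bri3bp, Pdzd8, Dok4, Atp2b3, Gal3st3, Ttll5, Zfp213 and Tbc1d9, with r between 0.74 and 0.78 over 24 libraries.

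Relatives of the members in the same families also moved in both directions. Of 8 such genes, 7 passed the filter. In vehicle mice versus sham, 2 of these 7, Atf3 and Jun, were higher, beside 26.6% of all genes. Egr3, Nr4a3 and Nr4a2, 3 of the 7, were lower, beside 27.7% of all genes. With 7 genes, these counts do not set the relatives apart from all genes. Atf3, a stress-induced partner of Jun, was 0.755 to 2.06 TPM in sham and 23.4 to 34.7 TPM in vehicle mice, a difference larger than that of any member (log2 fold change 3.84, SE 0.18, adjusted p = 5.05e-15). Jun, which pairs with Fos, was 38.5 to 45.3 and 63.2 to 84.3 TPM (log2 fold change 0.83, SE 0.075, adjusted p = 1.14e-09). Egr3, a target of neuronal activity like Egr1, was 80.9 to 89.2 and 38.5 to 54.6 TPM (log2 fold change -0.85, SE 0.094, adjusted p = 3.50e-08). Fosl2 and Jund did not pass. With PLX3397 plus Anakinra versus vehicle, Egr3 was higher (adjusted p = 0.0285) and Atf3 lower (adjusted p = 0.000973).

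Of 32 other genes that respond rapidly to stimuli, 12 were higher and 9 lower in vehicle mice versus sham, beside the 26.6% and 27.7% of all genes, with a median log2 fold change of 0.14. Those with the smallest adjusted p among the higher ones were Zfp36, which destabilises cytokine transcripts (log2 fold change 1.51, SE 0.086, adjusted p = 2.36e-13), the matrix protein gene Cyr61 (log2 fold change 2.01, SE 0.16, adjusted p = 1.11e-10), the stress gene Gadd45g (log2 fold change 0.84, SE 0.11, adjusted p = 5.27e-07), Tiparp (log2 fold change 0.57, SE 0.079, adjusted p = 1.25e-06) and Maff, a small partner of bZIP factors (log2 fold change 0.82, SE 0.13, adjusted p = 7.83e-06). The lower ones included the phosphatase Dusp14 (log2 fold change -0.63, SE 0.073, adjusted p = 6.73e-08). With PLX3397 plus Anakinra versus vehicle, Ctgf, Dusp14 and Ptgs2, an inducible cyclooxygenase, were higher, and Tiparp and Zfp36 lower.

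Late genes, which the immediate early factors and CREB switch on in neurons, were mostly lower. The median log2 fold change of the 10 was -0.49 in vehicle mice versus sham. Beside 27.7% and 26.6% of all genes, 7 of the 10 were lower and 1 higher. They included the synaptic ligand Nrn1 (log2 fold change -0.77, SE 0.070, adjusted p = 1.26e-09), the scaffold Homer1 (log2 fold change -0.52, SE 0.080, adjusted p = 5.77e-06), the prohormone convertase Pcsk1 (log2 fold change -0.67, SE 0.10, adjusted p = 6.01e-06), the neurotrophin Bdnf (log2 fold change -0.58, SE 0.10, adjusted p = 1.76e-05) and the secreted peptide precursor Vgf (log2 fold change -0.67, SE 0.11, adjusted p = 8.23e-06). The higher one, named for that reason after its value was seen, was Crem (log2 fold change 0.22, SE 0.070, adjusted p = 0.0103), a relative of CREB. Nrn1 alone was higher with PLX3397 plus Anakinra versus vehicle (adjusted p = 0.00524).

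Upstream of the members, 19 genes for receptors, kinases and factors that activate them were examined. In vehicle mice versus sham, 13 were lower and 1 higher, beside 27.7% and 26.6% of all genes. The median log2 fold change of the 19 was -0.37. The kinase gene Camk2a (log2 fold change -0.79, SE 0.067, adjusted p = 4.10e-10), the NMDA receptor gene Grin1 (log2 fold change -0.69, SE 0.066, adjusted p = 2.74e-09) and the factor gene Mef2c (log2 fold change -0.69, SE 0.076, adjusted p = 3.75e-08) were among the lower ones. Mapk3, for the kinase ERK1, was the higher one (log2 fold change 0.27, SE 0.042, adjusted p = 5.79e-06). Camk2a and Grin1 were also higher with PLX3397 plus Anakinra versus vehicle. Many of these genes are expressed mainly in neurons, whose markers moved the same way in both comparisons, and the part of neuron content in these counts was not tested.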

How the data were processed

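Bulk RNA was sequenced in 24 libraries, 1 per mouse. The authors sequenced paired ends on an Illumina NovaSeq, mapped the reads in CLC Genomics Workbench to GRCm38 and deposited TPM values for 36333 genes. TPM removes the depth of a library, sums to a common total and so makes a level relative to all other transcripts.

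The 17267 genes whose level averaged 0.5 TPM or more entered limma 3.58.1 (R 4.3.3), fitted on log2(TPM + 1), with 1 mean per group, all 24 libraries in 1 fit and a variance trend on expression. Fold changes are on the log2(TPM + 1) scale, which understates changes of low genes. P-values are two-sided and adjusted by Benjamini-Hochberg over all genes tested, and a call is an adjusted p below 0.05. P-values measure the spread between mice of a group. The fit was tested on simulated data. Groups come from the labels.

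The members and the lists of other genes were chosen with earlier results of these data known. All 10 members are named. Of each other list, the counts and up to 6 genes with the smallest adjusted p are given, and the 10 genes most like the members by Pearson's r of residuals. Columns of the authors' own comparisons were not used. Alternatives were a pseudocount of 0.1, no filter or a filter of 5 TPM, median-ratio rescaling, a fit of only the groups compared, robust variances, the second deposited table of all genes, the study's limits of fold and difference, each mouse left out in turn and, added after the data were seen, a block by shared animal number. Promoter windows were read from RefSeq with Python 3.11.15, and plots were drawn with matplotlib 3.10.9.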

Additional observations from a re-analysis of the deposited data

Results flagged for a closer look

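Of the 50 sets of values given by 10 members and 5 groups, 7 held a mouse far from the others of its group by Dixon's test, where chance gives about 1 in 20. Sham mouse J15 gave 3 of them. Its Arc level was 92.7 TPM and the next sham mouse had 56.9 TPM, its Nr4a1 level was 43.2 TPM with 29.2 TPM next, and its Dusp1 level was 39.5 TPM with 29.1 TPM next. In vehicle mice, J01B had 23.3 TPM of Fos, with 17.9 TPM in the next mouse, and J17B had 46.4 TPM of Dusp1, with 35.1 TPM in the next. Anakinra mouse J22 had 73.3 TPM of Arc, with 51.2 TPM next. PLX3397 mouse J02 had 1.87 TPM of Egr2, with 1.15 TPM next, a gap at a low level.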

How the results depend on the processing

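Under the study's limits of fold and difference at unadjusted p, 0 members were called for vehicle, PLX3397, Anakinra and PLX3397 plus Anakinra versus sham. Of all genes, 5.26%, 3.66%, 5.29% and 2.9% were called there. The count was also 0 for the combination versus vehicle (1.65% of all genes) and versus Anakinra (1.57%), and for the mean of the TBI groups versus sham (4.4%). At such shares a count of 0 does not set the members apart from all genes. With only the groups compared in the fit, the combination versus vehicle called 2 members, Egr1 and Egr4. Leaving out each mouse in turn gave 3 to 6 members for the combination versus sham, 0 to 3 versus vehicle and 0 to 1 versus Anakinra. In the fit of all mice, 38.8%, 17.5% and 12.8% of all genes were called in these comparisons.

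Of 694 values of single members under an alternative, 640 kept their direction and side of the threshold, 13 lost a call, 20 gained one and 21 changed sign. All sign changes concerned values without a call. They were Egr2 for Anakinra versus sham with a pseudocount of 0.1 (-0.0049), and Dusp1 with median-ratio rescaling for Anakinra (0.013) and the combination (-0.0072) versus vehicle. With each mouse left out, the log2 difference of Egr2 from sham ran from -0.065 to 0.054 for PLX3397, -0.046 to 0.063 for Anakinra, -0.057 to 0.036 for the combination and -0.024 to 0.054 for the mean of the TBI groups, and that of Arc from -0.35 to 0.017 for the combination. For PLX3397 versus vehicle the ranges were -0.071 to 0.13 for Fosb, -0.032 to 0.15 for Egr1, -0.012 to 0.14 for Egr4, -0.11 to 0.11 for Arc, -0.14 to 0.038 for Npas4 and -0.037 to 0.17 for Nr4a1. For Anakinra versus vehicle they were -0.10 to 0.033 for Fos, -0.040 to 0.16 for Fosb, -0.18 to 0.034 for Egr4, -0.011 to 0.24 for Arc, -0.00047 to 0.15 for Npas4 and -0.075 to 0.086 for Dusp1, and for the combination versus vehicle -0.054 to 0.093 for Dusp1. The causes were not tested.

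Without the letter B, vehicle mice share 3 numbers with PLX3397 mice and 1 with a combination mouse, and the sources do not say whether a number marks a pair. Residuals over 17267 genes correlated at 0.17 for J01B and J01 and 0.32 for J17B and J17. They correlated at -0.13 for J19B and J19 and -0.066 for J20B and J20. Mice that share no number were not compared in this way, so these values do not decide whether a number marks a pair. The members' mean deviations in standard units were 0.45 and 0.45 for J01B and J01 and 0.59 and 1.24 for J17B and J17. They were -0.38 and -1.01 for J19B and J19, and 0.076 and -0.56 for J20B and J20. The main fit treats the mice as unpaired. A replicate block by these numbers, added after the data were seen and limited to the 3 pairs of vehicle and PLX3397 mice, called 1 member, Junb, and 703 genes in all, against 0 and 1707 in the fit without it. Depth is unknown, and the levels of Egr2 leave little room to see a change.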
